A study of Solanum tuberosum with 8 samples.

Results

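The genes of starch synthesis and breakdown were followed in mature potato tubers that differed in tuber starch content (TSC). They were chosen where the product name in the deposited comparison tables held certain words (starch, branching enzyme, glucose-1-phosphate adenylyltransferase, isoamylase, amylase, alpha-glucan phosphorylase, glucan water dikinase, phosphoglucan and 4-alpha-glucanotransferase, without inhibitors) and by a sum of at least 80 counts over the 8 libraries. Of the 32768 genes counted, 37 matched the words and 33 also passed the minimum. The 4 genes that did not pass had sums of 3 (a branching enzyme 2-2, LOC102600384), 5 (an inactive AGPase small subunit, LOC102598180), 11 (AGPase large subunit 3, LOC102582750) and 44 counts (a beta-amylase, LOC102584563), and the member nearest above the minimum had 319 counts (a beta-amylase 3, LOC102594291). All 33 members passed the filter on low counts that left 20389 genes for testing. The member LOC102584487 carries the words "debranching enzyme" but is annotated as an enzyme of RNA lariats, and it is not an enzyme of starch.

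Tuber starch is made in the amyloplast. ADP-glucose pyrophosphorylase (AGPase), an enzyme of large and small subunits, makes ADP-glucose, which starch synthases add to growing glucan chains. Branching enzymes introduce branch points, isoamylases trim them, and the granule-bound starch synthase makes amylose. Breakdown begins with phosphate groups that the dikinase R1 (glucan, water dikinase) places on the granule surface. Phosphoglucan phosphatases remove phosphate from glucans. Amylases, phosphorylases and disproportionating enzymes then release maltose, glucose and glucose-1-phosphate.

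The tubers came from the diploid F1 population 12-3 (DG 00-683 × DG 08-28/13) and were fully developed, harvested and untreated. Total RNA of several plants was pooled into each of 4 bulks, with 2 libraries (A and B) per bulk. Bulk H1 had high TSC and high expression of *AGPaseS-a*, H2 high TSC and low expression, L1 low TSC and high expression, and L2 low TSC and low expression. A bulk therefore gives a mean over its plants. The study's methods call A and B biological replicates but do not say whether they drew on the same plants, and the p-values measure the spread between these libraries. In these pools, a change in the share of a cell type and a change of RNA per cell cannot be told apart.

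The class of *AGPaseS-a* expression was assigned from measurements of single plants made before the RNA-seq. The RT-qPCR primer pair that the study used for *AGPaseS-a* in this population is shown as the study's own assay of this transcript. The methods refer to an earlier study for how the classes of the bulks were determined. Both primers are written in full from 5′ to 3′ and in lower case.
Forward primer of *AGPaseS-a*: tcatgatgggagcagactcctacc
Reverse primer of *AGPaseS-a*: ctttcctatctttgcgttcttgt
Which annotated gene this pair amplifies was not searched here, and no member is taken to be *AGPaseS-a*.

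The libraries held between 15293539 and 31943185 counts on genes. Levels are given as CPM (counts scaled to a common total) after TMM scaling. They are not corrected for transcript length and are compared between libraries, not between genes. Patatins, the storage proteins that mark tuber tissue, summed to between 13474 and 25497 CPM over 24 genes, the 2 genes of the Rubisco small chain stayed at or under 1.21 CPM, and 30 chlorophyll-binding proteins summed to 65.0 to 283 CPM. The 12 periderm genes summed to 2.85 to 8.30 CPM. Libraries H1A and H2B stood apart from the others. They had the fewest genes with any count, 19392 (H1A) and 20213 (H2B), against 22193 to 23188 in the other libraries. Their TMM factors were the lowest, 0.824 (H1A) and 0.944 (H2B), against 0.999 to 1.086 in the other libraries. H1A held the fewest counts (15293539), while H2B held more (24667778) than H1B (20344661). The 8 genes of dividing tissue (histone H4 and cyclin-B) summed to 1049 CPM in H1A and 934 CPM in H2B, and to between 396 and 509 CPM in the other 6 libraries. The share of all counts that fell on the 33 starch genes was 0.713% in H1A and 0.769% in H2B, and 1.16 to 1.40% in the other libraries. This share leaves out starch enzymes whose product names lack the words of the rule, which are given further below.

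No starch gene differed between high-TSC and low-TSC tubers, or between the classes of *AGPaseS-a*, beyond the spread of the libraries. With edgeR's quasi-likelihood test, 0 of the 33 genes reached even an unadjusted p of 0.05 in any of the 5 contrasts, and DESeq2 also gave 0 of 33 in each. The share of all 20389 tested genes at that unadjusted p was 7.84% in H/L (low-TSC relative to high-TSC bulks), 5.73% in H1/L1, 2.36% in H2/L2, 3.13% between the classes of *AGPaseS-a* (H1 and L1 relative to H2 and L2) and 1.57% in the interaction (H1/L1 minus H2/L2). In DESeq2 that share was 10.4%, 8.2%, 3.35%, 4.17% and 2.3% in the same order. A gene was called where the FDR was below 0.05 and the log2FC at least 1.5 in size, and 0 starch genes were called, also by DESeq2. The shares of all genes called by edgeR under that rule were 0% in H/L, H1/L1, H2/L2 and the interaction and 0.0049% between the classes. Of all 20389 genes, DESeq2 called 27 higher and 39 lower in H/L and 16 and 21 in H1/L1. In H2/L2 it called 9 and 17, between the classes 25 and 14, and in the interaction 2 and 4. The 0 starch genes called are thus near the small shares of all genes. The lowest FDR of a starch gene was 0.635 in H/L and 0.789 in H1/L1 (edgeR). When library H1B was left out, 7 starch genes, all higher in the low-TSC bulks, had an unadjusted p under 0.05 in H/L and 7 in H1/L1, where 24.2% and 24.1% of all genes did. When any other single library was left out, at most 2 starch genes did so in any contrast (2 in H/L and 2 in H2/L2 without H2A, where 15.5% and 8.78% of all genes did). When H1A and H2B were left out together, the highest number was 3, in the interaction, where 4.70% of all genes did.

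The intervals of the H/L differences set how large a change could have passed unseen. For 25 of the 33 genes, the 95% interval of the log2FC lay inside −1 to 1, that is within a 2-fold change in either direction, against 43.0% of all tested genes. The 8 other genes were R1, the branching enzyme LOC102596498, 3 alpha-amylases, 2 beta-amylases of the BAM3 type and the phosphorylase LOC102577532. Within single pairs of bulks the intervals were wider, and 13 genes in H1/L1 and 19 in H2/L2 lay inside the same limits. In the interaction this held for 1 gene.

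The estimates themselves leaned towards the low-TSC bulks. In H/L, 27 of the 33 log2FC were above 0 with a median of 0.19, beside 52.0% and a median of 0.02 over all tested genes. The size of this lean depended on which high-TSC libraries were kept. H1A or H2B was the lowest library for 29 of the 33 genes, so that leaving both out lowers the estimates by construction. Without both of them, 14 of 33 log2FC were above 0 and the median was −0.04, beside 0.02 over all genes. Without H1A alone 22 genes were above 0 and without H2B alone 21. Without H1B alone 26 genes were above 0, with a median of 0.39 beside 0.12 over all genes. Without H2A alone it was 30 genes, with a median of 0.35 beside 0.09. Scaling by library totals in place of TMM moved the median of all genes to 0.14 and that of the starch genes to 0.28, with 31 of 33 above 0. Between the classes of *AGPaseS-a*, 16 of 33 log2FC were above 0 and the median was −0.001, beside 0.0007 over all genes.

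**Figure D1:**
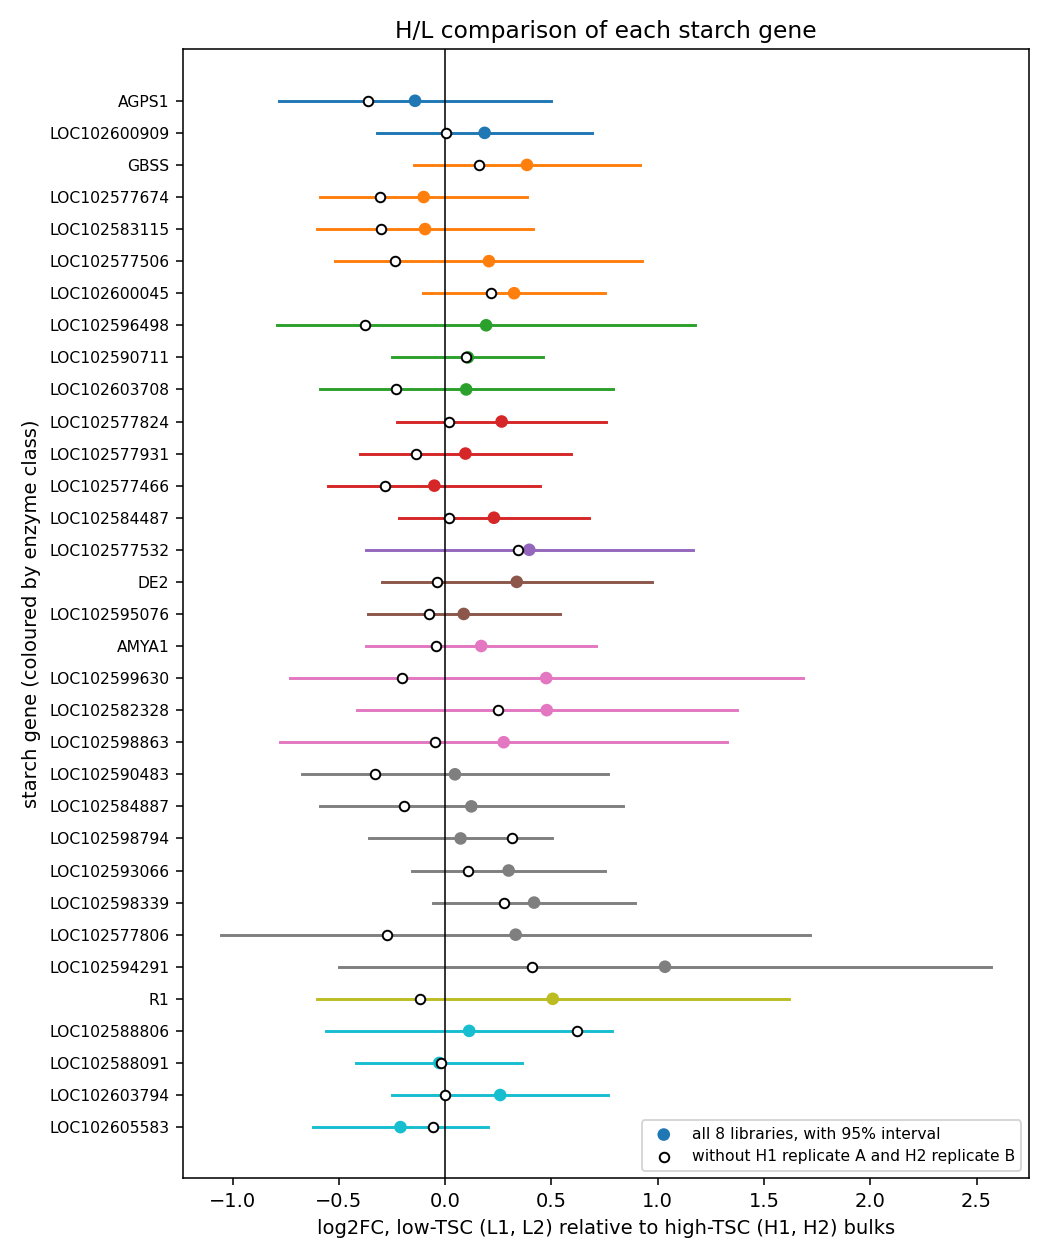
The log2FC of low-TSC (L1, L2) relative to high-TSC (H1, H2) bulks on the horizontal axis for each of the 33 starch genes, coloured by enzyme class, with its 95% interval from edgeR (filled points and lines) and the estimate without H1 replicate A and H2 replicate B (open points). Every interval crosses 0, and 27 filled but 14 open points lie to the right of it.

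The 2 high-TSC bulks shared a difference between their own replicates. Library H1A was below H1B for 26 of the 33 starch genes and H2B was below H2A for 28. Both held for 24 genes, while 37.7% of all tested genes were below in both pairs. The median log2 ratio, with 2 added to each CPM, was −0.41 for H1A to H1B and −0.52 for H2B to H2A, beside −0.05 and −0.04 over all genes. In the low-TSC bulks the corresponding medians of A to B were −0.01 in L1 and 0.05 in L2. For 29 of the 33 genes, the lowest of the 8 libraries was H1A or H2B, which was the case for 48.5% of all tested genes. What separates H1A and H2B from the other libraries was not tested as a source of these differences. This includes the histone and cyclin-B levels, the numbers of detected genes and the TMM factors above. Ratios of H1A to H1B and of H2B to H2A were also related across all genes, with a Spearman rho of 0.523 over 20389 genes and 0.329 over the 33 starch genes. These points share 4 libraries and are no replicates.

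**Figure D2:**
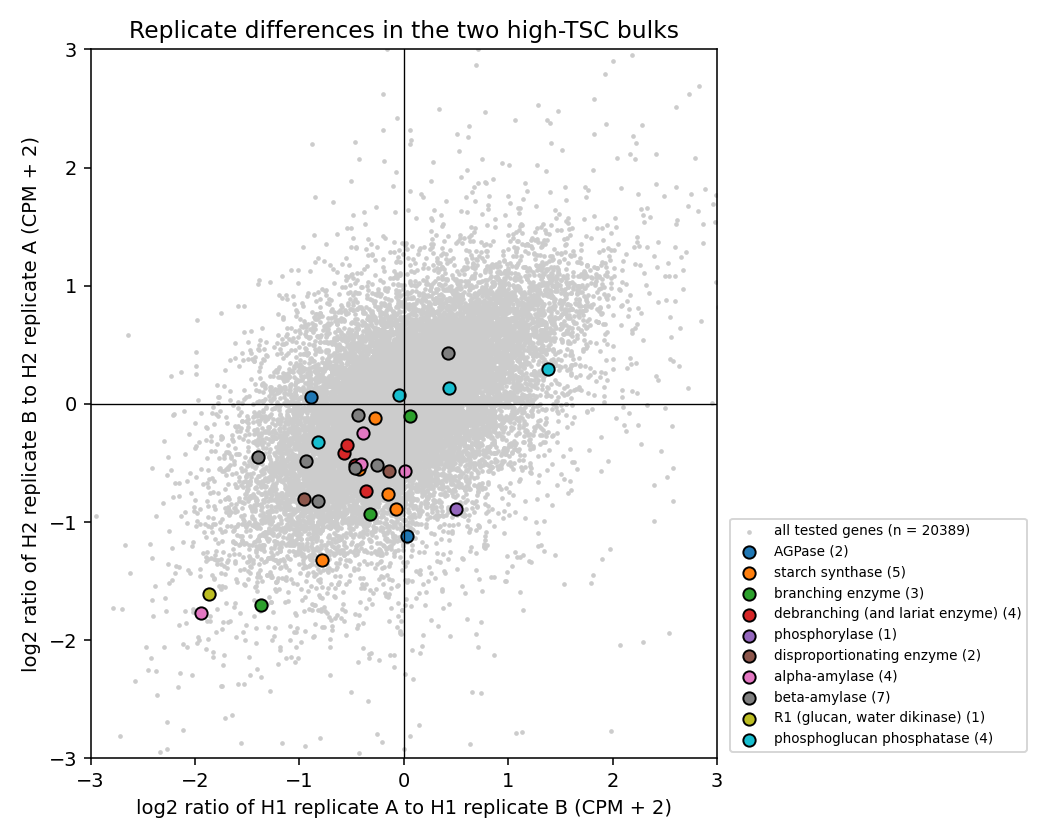
The log2 ratio of H1 replicate A to B (horizontal axis) against that of H2 replicate B to A (vertical axis), each from CPM + 2, for the 33 starch genes, coloured by enzyme class, and for all 20389 tested genes in grey (35 lie outside the axes). Of the starch genes, 24 are in the lower left quadrant, and R1, the alpha-amylase 3 LOC102599630 and the branching enzyme LOC102596498 are the farthest down in it.

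The largest such differences were in 3 genes. The dikinase gene *R1*, which starts granule breakdown by phosphorylating starch, was at 201 CPM in H1A against 739 in H1B and at 147 in H2B against 452 in H2A. The low-TSC libraries had 369 (L1A), 610.4 (L1B), 434 (L2A) and 727 CPM (L2B), so that the range of the high-TSC libraries enclosed all of them. The log2FC of *R1* was 0.51 (SE 0.485) in H/L and 0.95 (SE 0.690, 95% interval −0.63 to 2.53) in H2/L2, with unadjusted p-values of 0.326 and 0.203 in edgeR. The H2/L2 value was 0.36 without H2B and 1.99 without H2A (unadjusted p = 0.0411, FDR = 0.561). LOC102599630 is the plastid alpha-amylase 3, an enzyme that cuts inside glucan chains. It had 11.2 (H1A), 48.8 (H1B), 45.1 (H2A), 11.9 (H2B), 40.1 (L1A), 43.2 (L1B), 27.4 (L2A) and 52.3 CPM (L2B). The low values of H1A and H2B lay below every low-TSC library, while H1B and H2A lay among them. LOC102596498, a branching enzyme whose closest Swiss-Prot entry is GLGB of potato, had 590.5 (H1A), 1524 (H1B), 1658 (H2A), 508 (H2B), 1092 (L1A), 1499 (L1B), 1385 (L2A) and 925 CPM (L2B). H1A and H2B were again below all low-TSC libraries, and H1B and H2A above all of them. Its H/L log2FC was 0.19 (SE 0.429), and −0.38 without H1A and H2B.

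**Figure D3:**
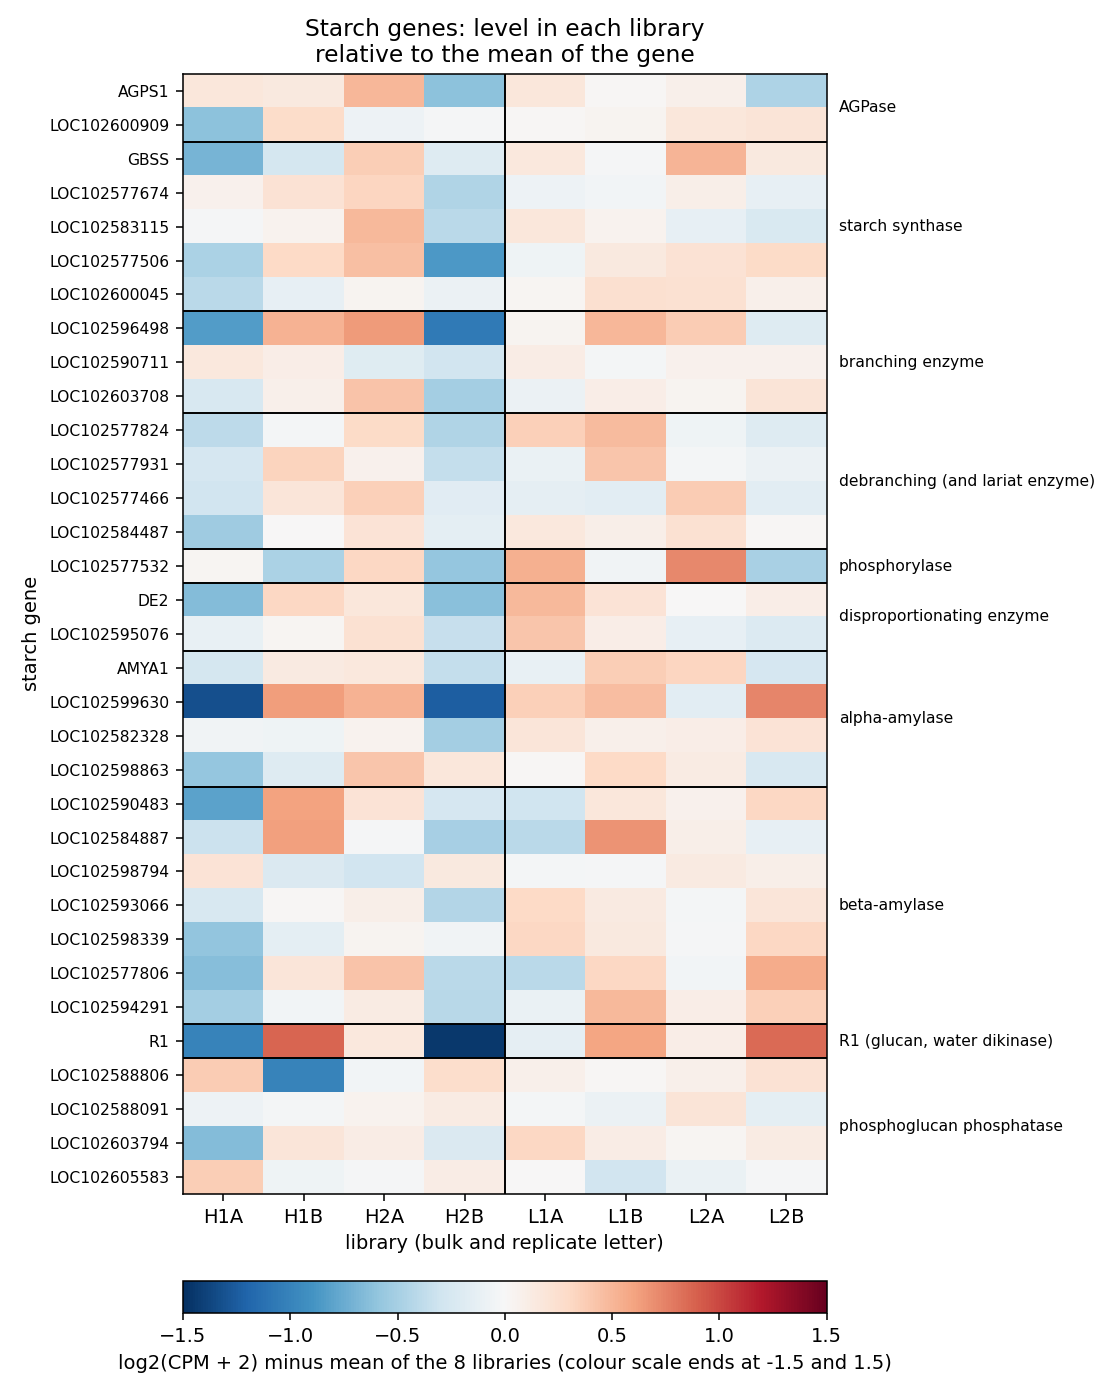
The level of each starch gene (rows, grouped by enzyme class) in each library (columns) as log2(CPM + 2) minus the mean of the gene over the 8 libraries. Blue cells, for values below the mean of the gene, are most frequent in the columns H1A and H2B, which hold the lowest value of 29 of the 33 genes.

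Of AGPase, 2 members were measured. *AGPS1*, whose product name and closest Swiss-Prot entry are a large subunit, had 2259.9 (H1A), 2217 (H1B), 2843 (H2A), 1307 (H2B), 2247 (L1A), 2033 (L1B), 2106 (L2A) and 1459 CPM (L2B). Both the highest and the lowest of these libraries were of bulk H2 (2075 ± 1086 CPM, SD, n = 2), and the other bulks lay between them. Its log2FC was −0.14 (95% interval −0.78 to 0.50) in H/L and 0.19 (−0.45 to 0.83) between the classes of *AGPaseS-a*. LOC102600909, large subunit 2, had 26.9 (H1A), 51.5 (H1B), 40.1 (H2A), 41.9 (H2B), 42.6 (L1A), 43.6 (L1B), 47.9 (L2A) and 48.7 CPM (L2B). H1A was the lowest and H1B the highest of the 8. Its log2FC between the classes was −0.11 (SE 0.221), and without H1A and H2B it was 0.11. A gene named ADP-glucose pyrophosphorylase small subunit, LOC102577790, did not match the words of the rule and was looked up after the values had been seen. It had 1956 (H1A), 1097 (H1B), 1691 (H2A), 1487 (H2B), 1113 (L1A), 1299 (L1B), 2090.1 (L2A) and 1064 CPM (L2B). The classes of *AGPaseS-a* overlapped in this gene, with a log2FC of −0.22 (95% interval −0.88 to 0.43).

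The 5 starch synthases included the gene with the most counts among the members. *GBSS*, the granule-bound enzyme of amylose synthesis, had 1881 (H1A), 2541 (H1B), 3939 (H2A), 2684 (H2B), 3407 (L1A), 3034 (L1B), 4372 (L2A) and 3377.5 CPM (L2B). H1A, H1B and H2B were below all 4 low-TSC libraries, and H2A was above all but L2A. The log2FC was 0.38 in H/L (SE 0.233, 95% interval −0.15 to 0.92) and −0.42 between the classes of *AGPaseS-a* (95% interval −0.96 to 0.11), where its unadjusted p of 0.104 was the lowest of the 33 genes in edgeR. LOC102577674, annotated as a soluble starch synthase and closest to potato starch synthase 3, was at 263 (H1A), 292 (H1B), 314 (H2A) and 184 CPM (H2B) in the high-TSC and at 238 (L1A), 245 (L1B), 268 (L2A) and 229.9 CPM (L2B) in the low-TSC libraries. The low-TSC range lay inside that of the high-TSC libraries, and the log2FC was −0.10 (SE 0.212). LOC102583115, closest to starch synthase 2, had 141 (H1A), 149 (H1B), 201 (H2A), 108 (H2B), 161 (L1A), 148 (L1B), 132 (L2A) and 122 CPM (L2B). Its log2FC in H/L was −0.09 (SE 0.221), and here too H2A and H2B were the 2 extremes. LOC102577506, starch synthase V, was 1.76 times as high in H1B as in H1A and 2.60 times as high in H2A as in H2B, and its low-TSC libraries had 49.4 to 63.6 CPM. LOC102600045, starch synthase 1, had 12.7 to 18.0 CPM in the high-TSC and 17.9 to 21.1 CPM in the low-TSC libraries, which overlapped only in H2A and L1A, with a log2FC of 0.32 (SE 0.186).

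The other branching enzymes and the debranching enzymes spanned narrower ranges than LOC102596498. The branching enzymes LOC102590711 (2-2) and LOC102603708 (3) spanned 75.5 to 104 CPM and 5.24 to 11.8 CPM over the 8 libraries. LOC102590711 thus did not share the spread of the branching enzyme LOC102596498, and its highest library was 1.37 times its lowest. Isoamylase 3, LOC102577824, a debranching enzyme known in other plants for breakdown, had 156 (H1A), 200.1 (H1B), 249.7 (H2A), 149 (H2B), 262.5 (L1A), 286 (L1B), 195 (L2A) and 179 CPM (L2B). In H1/L1 the libraries of this gene did not overlap and the log2FC was 0.62 (SE 0.304, unadjusted p = 0.0727 and FDR = 0.789 in edgeR), while L2 lay within H2. The difference between the pairs, tested as the interaction, was 0.72 (SE 0.428, unadjusted p = 0.131 in edgeR). Isoamylases 1 (LOC102577466) and 2 (LOC102577931), which trim glucan chains during synthesis, spanned 50.9 to 81.7 CPM and 56.0 to 96.8 CPM. The lariat enzyme LOC102584487 spanned 41.4 to 71.5 CPM, and without it 26 of 32 genes were above 0 in H/L with the same median of 0.19.

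Of the enzymes of glucan release, the phosphorylase and the disproportionating enzymes also varied between replicates. LOC102577532, the cytosolic H-type phosphorylase, had 470.4 (H1A), 331 (H1B), 572 (H2A), 308 (H2B), 671.5 (L1A), 446.5 (L1B), 763 (L2A) and 328 CPM (L2B). In each of the 4 bulks, A was above B, and the highest and second lowest values were the replicates of L2. Its H/L log2FC of 0.40 (SE 0.335) was within this spread. *DE2*, closest to the cytosolic DPE2 that handles maltose in Arabidopsis leaves, had 363 (H1A), 705 (H1B), 644 (H2A), 368.5 (H2B), 799 (L1A), 659 (L1B), 572 (L2A) and 610.5 CPM (L2B). H1A and H2B were below all low-TSC libraries, and H1B and H2A were not. Its log2FC in H/L was 0.34 (SE 0.277), and −0.04 without H1A and H2B. The plastid form, LOC102595076, spanned 237 to 402 CPM. A further 2 starch enzymes that the words of the rule miss were looked up after the values had been seen. The plastid phosphorylase LOC102596766, annotated as an alpha-1,4 glucan phosphorylase L-1, had 10062 (H1A), 5359.7 (H1B), 9187 (H2A), 7737 (H2B), 6789 (L1A), 7490.2 (L1B), 10947 (L2A) and 6993 CPM (L2B). H1A was among its highest libraries and H1B its lowest, opposite to most members, and its H/L log2FC was −0.01 (95% interval −0.66 to 0.63). *GWD3*, annotated as a glucan/water dikinase, had 259.9 (H1A), 476 (H1B), 639 (H2A), 237 (H2B), 464 (L1A), 584 (L1B), 461 (L2A) and 371 CPM (L2B). Like *R1*, it was lowest in H1A and H2B, with a log2FC of 0.22 (95% interval −0.56 to 0.99).

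H1A or H2B was the lowest library of every amylase but LOC102598794. *AMYA1*, an alpha-amylase, had 255 (H1A), 338 (H1B), 343.5 (H2A), 240.2 (H2B), 284 (L1A), 399 (L1B), 384 (L2A) and 257 CPM (L2B). The TSC classes overlapped over most of their range, and the log2FC was 0.17 (SE 0.236). LOC102590483, annotated as inactive beta-amylase 9, a form without catalytic activity in Arabidopsis, had 261 (H1A), 693 (H1B), 524 (H2A), 382 (H2B), 369 (L1A), 515 (L1B), 478 (L2A) and 564.5 CPM (L2B). H1A and H1B were the lowest and the highest library, and the H/L log2FC was 0.05 (SE 0.315). Beta-amylases release maltose from chain ends. Of the 2 genes of the BAM1 type, LOC102584887 followed the same replicates as most members, with H1B 1.96 times as high as H1A, while LOC102598794 had 50.2 and 48.1 CPM in H1A and H2B and 37.0 and 35.1 CPM in H1B and H2A. LOC102598794 was thus 1 of 3 members above in both of the libraries that stood apart.

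A further 3 genes, with fewer counts, are named here after their values were seen. Beta-amylase 8, LOC102598339, a protein found in the nucleus in Arabidopsis, had 9.77 and 14.0 CPM in H1A and H1B and 16.3 and 15.1 CPM in H2A and H2B. The low-TSC libraries had 19.9 (L1A), 17.6 (L1B), 15.5 (L2A) and 20.0 CPM (L2B), above H1 in every case and overlapping with H2. The log2FC was 0.66 (SE 0.294, unadjusted p = 0.055 and FDR = 0.789 in edgeR) in H1/L1 and 0.42 (SE 0.207, unadjusted p = 0.0769) in H/L. LOC102598863, an alpha-amylase, had 0.635 to 3.26 CPM, and its interaction of 1.86 (SE 0.925, 95% interval −0.26 to 3.98) had an unadjusted p of 0.0785 in edgeR. LOC102582328, another alpha-amylase, was the only one of the 33 genes whose 4 high-TSC libraries (1.25 to 2.80 CPM) did not overlap with the 4 low-TSC libraries (2.88 to 3.33 CPM), against 6.24% of all tested genes. Its log2FC in H/L was 0.48 (SE 0.390). These 3 genes stood on 455 to 3552 counts over all libraries.

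**Figure D4:**
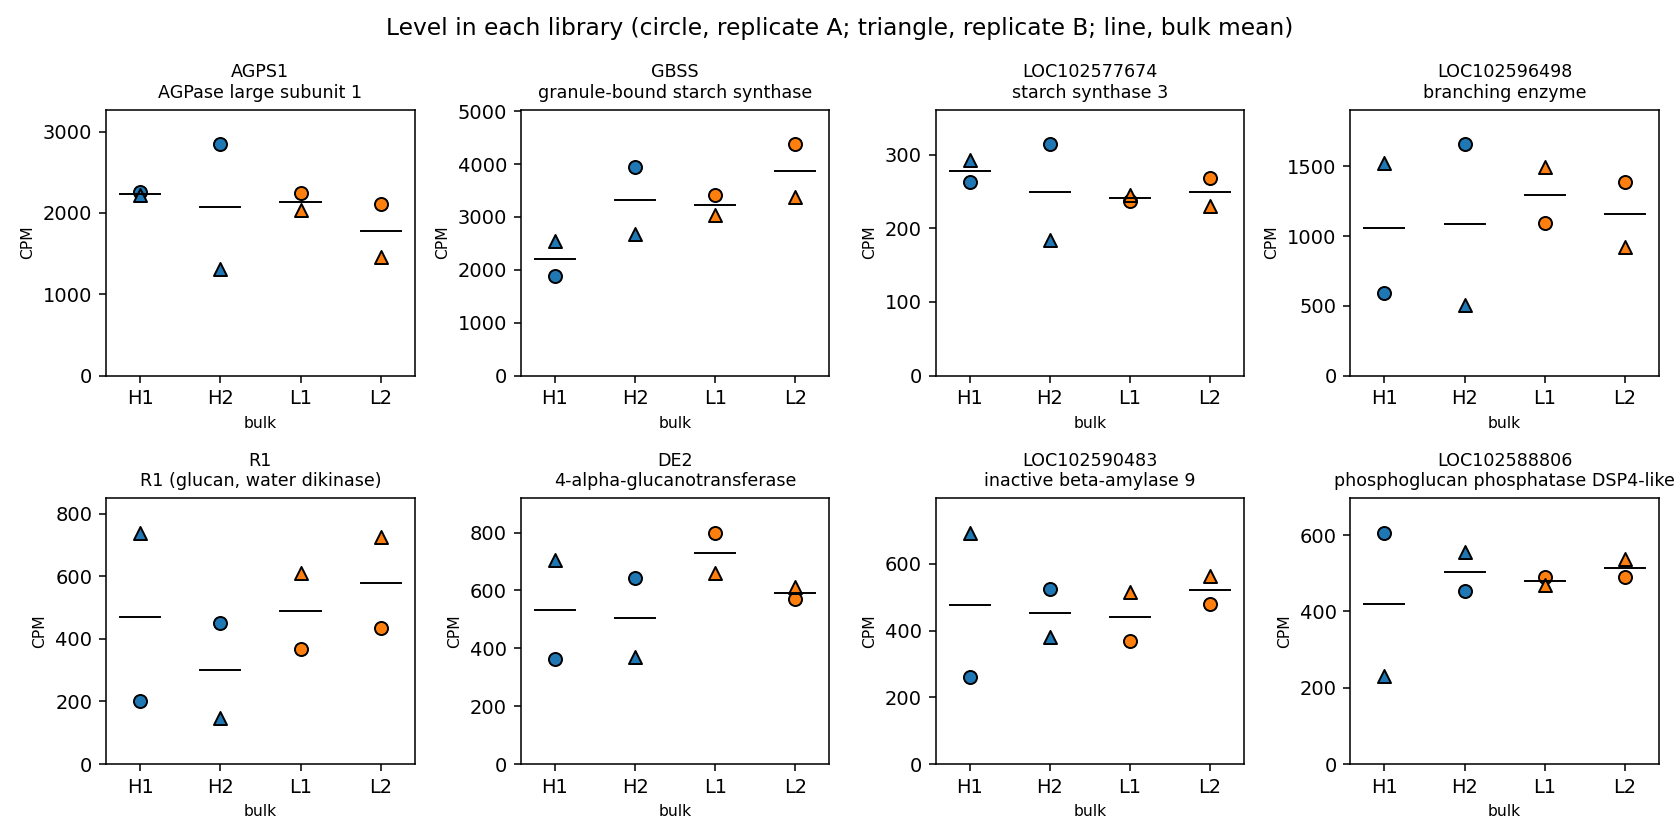
CPM in each library of 8 starch genes, with bulks on the horizontal axis, high-TSC bulks in blue, low-TSC bulks in orange, circles for replicate A, triangles for replicate B and a line for the mean of the bulk. Replicates of both H1 and H2 are far apart for LOC102596498, *R1* and *DE2*. Those of H1 alone are far apart for LOC102590483 and LOC102588806, and those of H2 alone for *AGPS1* and LOC102577674.

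The genes annotated as phosphoglucan phosphatases included 2 of the 3 genes that ran against the other members. LOC102588806, a DSP4-like enzyme, had 606 (H1A), 231 (H1B), 452 (H2A), 556 (H2B), 491 (L1A), 469 (L1B), 491 (L2A) and 537.5 CPM (L2B). H1B alone was low, and the 7 other libraries lay between 452 and 606 CPM. With all libraries the H/L log2FC was 0.11 (SE 0.293). Without H1A it was 0.54 (SE 0.180, unadjusted p = 0.0184, FDR = 0.833 in edgeR), and without H1B it was −0.15. LOC102605583, the phosphatase LSF2, had 108 CPM in H1A and 67.6 to 89.7 CPM in the other libraries. The second DSP4 gene, LOC102588091, varied least of the members, from 276 to 349 CPM over the 8 libraries, and its log2FC in H/L was −0.03 (95% interval −0.42 to 0.36). LOC102603794, LSF1, a relative without phosphatase activity in Arabidopsis, was 1.80 times as high in H1B as in H1A, and its low-TSC libraries had 97.5 to 118 CPM.

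Summed over all 33 genes, the levels were 8657 CPM in H1A, 11425 in H1B, 13677 in H2A and 8149.8 in H2B, and 10665 to 13013 CPM in the low-TSC libraries. H1A and H2B were below the range of the low-TSC libraries, H1B was inside it and H2A above it. The sum leaves out starch enzymes that the words of the rule miss. The plastid phosphorylase LOC102596766 (mean of 8071 CPM) and the AGPase small subunit LOC102577790 (1475 CPM) were higher in H1A than in H1B. *GWD3* (436.5 CPM) and the pullulanase LOC102581262 (103 CPM) were lower in H1A. The place of H1A and H1B in this sum therefore depends on the rule. Over the low-TSC libraries alone, the highest library of a starch gene was at the median 1.40 times its lowest, and over all 8 libraries 1.90 times (each with 2 CPM added), beside 1.32 and 1.84 for all tested genes. Across the 33 genes, the genomic span and the mean of the 2 replicate ratios had a Spearman rho of −0.035 (−0.272 over all tested genes), given as a description, since the genes share these libraries. The 16 longer genes had medians of −0.40 (H1A to H1B) and −0.75 (H2B to H2A), and the 17 shorter genes −0.41 and −0.48. On the SolTub_3.0 scaffolds, 3 pairs of members shared a scaffold, with starts 254.6 kb (*AMYA1* and LOC102596498), 397 kb (*GBSS* and LOC102598794) and 374 kb apart (LOC102598339 and LOC102577466).

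Steps that supply the pathway and carry its products away were followed in 65 further genes of sucrose cleavage, hexose phosphates, plastid transport and trehalose phosphate, to which alpha-glucosidases, a pullulanase and a PTST (a protein that brings granule-bound starch synthase to the granule in Arabidopsis) were joined. Of the 65 genes, 57 were tested. Of these, 4 had an unadjusted p under 0.05 in H/L, 1 in H1/L1, 3 in H2/L2, 1 between the classes of *AGPaseS-a* and 2 in the interaction, and none had an FDR under 0.05 (edgeR). The shares of all genes under that p were, in the same order, 7.84%, 5.73%, 2.36%, 3.13% and 1.57%, so that the count in H/L was near the background. Pullulanase (LOC102581262), another debranching enzyme, had 61.8 to 151 CPM and a log2FC of −0.03 (SE 0.312) in H/L, and PTST (LOC102592496) had 8.26 to 13.8 CPM and a log2FC of 0.18 (SE 0.226). The lowest p of these genes in H/L belonged to LOC102604259, a glucose-6-phosphate/phosphate translocator 2, which imports carbon into plastids. It had 3.41 (H1A), 4.67 (H1B), 4.18 (H2A), 5.72 (H2B), 0.658 (L1A), 3.18 (L1B), 0.337 (L2A) and 0.485 CPM (L2B). All low-TSC libraries were below all high-TSC libraries, with a log2FC of −2.33 (SE 0.542, unadjusted p = 0.00246, FDR = 0.623 in edgeR). A more abundant translocator 2 gene, LOC102577730, had 388 to 1234 CPM, and its TSC classes overlapped (log2FC −0.73, SE 0.328). The translocator 1 gene LOC102578523, at 75.3 to 333 CPM, had a log2FC of 0.56 (SE 0.441). A gene annotated as hexokinase-1 (LOC102605773), which phosphorylates glucose, had 1.59 to 4.48 CPM in the high-TSC and 6.43 to 7.995 CPM in the low-TSC libraries, without overlap. Its log2FC in H/L was 1.18 (SE 0.360, unadjusted p = 0.0106, FDR = 0.623 in edgeR). Another gene annotated as hexokinase-1, LOC102604144, had more counts, with 71.6 to 101 CPM. Its log2FC in H/L was −0.11 (SE 0.184). The maltose exporter LOC102597118, annotated as maltose excess protein 1-like, had 109 (H1A), 161 (H1B), 124 (H2A) and 100.5 CPM (H2B) in the high-TSC and 203 (L1A), 239 (L1B), 292 (L2A) and 144 CPM (L2B) in the low-TSC libraries. Only L2B lay within the high-TSC range, and the H/L log2FC was 0.83 (SE 0.264, unadjusted p = 0.013, FDR = 0.623 in edgeR). Within H2/L2 the libraries did not overlap, and the log2FC was 0.95 (SE 0.374, unadjusted p = 0.0333, FDR = 1.00 in edgeR). The alpha-glucosidase LOC102597879 had the lowest p between the classes of *AGPaseS-a* (log2FC 0.91, SE 0.341, unadjusted p = 0.027 in edgeR), at 1.90 to 6.43 CPM. The plastid ATP/ADP transporter LOC102584892 had the lowest p in the interaction (0.85, SE 0.319, unadjusted p = 0.0271 in edgeR), with 40.3 to 46.3 CPM in H1, 60.2 to 60.8 CPM in L1, 55.8 to 57.1 CPM in H2 and 40.5 to 46.8 CPM in L2. A more abundant gene of this kind, LOC102605062, had 1962 to 4018 CPM and an interaction of −0.39 (SE 0.497).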

How the data were processed

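Per the labels and the methods of the study, poly(A) RNA was sequenced from directional libraries, and the authors trimmed the reads (Trimmomatic), aligned them to SolTub_3.0 with TopHat 2.0.9 on a Bowtie2 2.1.0 index and counted them per gene with HTSeq. How HTSeq treated strand and reads over several genes is not stated there, and the counts of any genes alike in sequence are uncertain. How alike the members are in sequence, such as the BAM1 or DSP4 pairs, was not examined. The authors deposited these counts without normalization, together with tables of their own comparisons (normalized counts, fold changes, p-values), of which only the annotation (product names, Swiss-Prot hits and gene positions) was used, beside a check that 192484 of 192484 counts repeated there equal those of the count table. A further 2 columns of the count table match no sample and were not used.

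Genes were filtered with filterByExpr, scaled by TMM and compared by edgeR 4.0.16's quasi-likelihood test (R 4.3.3), with 1 mean per bulk over 8 libraries and Benjamini-Hochberg adjustment over 20389 genes. Intervals of 95% use the t distribution of that fit. The procedure was tested on simulated counts drawn independently for each library, without a difference shared by H1A and H2B, so that test does not cover such a difference. Alternatives were DESeq2 1.42.0, RLE factors, library totals, other filters, 4 libraries only, the replicate letter as a block, libraries left out and a member minimum of 800 counts. Named are all AGPase genes, the member with most CPM per class, others with a mean of at least 100 CPM, up to 15 with the lowest p under 0.05, the 4 with the largest replicate ratio in H1 and in H2, and up to 2 neighbouring genes per contrast. The members and lists were chosen with earlier results of these data known.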

Additional observations from a re-analysis of the deposited data

Results flagged for a closer look

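Of 66 sets of 4 libraries (the high-TSC and the low-TSC libraries of each of the 33 starch genes), 2 held a library far from the other 3 by Dixon's criterion, which chance gives in about 1 of 20 sets. Isoamylase 2 (LOC102577931) was at 96.8 CPM in L1B and at 67.4 to 70.5 CPM in the 3 other low-TSC libraries. Isoamylase 1 (LOC102577466) was at 81.7 CPM in L2A and at 55.5 to 56.7 CPM in the others.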

How the results depend on the processing

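The count of 0 starch genes at an unadjusted p of 0.05 stayed at 0 in each contrast with DESeq2, RLE factors, library totals, no filter, at least 50 counts, a member minimum of 800 counts (29 genes) and, for H1/L1 and H2/L2, the 4 libraries of the comparison only. It also stayed at 0 with the letter as a replicate block. The letters did not pair the libraries (correlation of A minus B between bulks of −0.333 to 0.134). With the letters of H2 crossed, chosen after seeing the data, the block gave 2 genes in H/L, 2 in H1/L1 and 1 in H2/L2, where 10.8%, 7.75% and 3.26% of all genes passed. With libraries left out, including H1A and H2B together, the counts ranged from 0 to 7 in H/L, 0 to 7 in H1/L1, 0 to 2 in H2/L2, 0 to 1 between the classes of *AGPaseS-a* and 0 to 3 in the interaction. The 7 in H/L, without H1B, were all higher in the low-TSC bulks, where 24.2% of all tested genes passed. No starch gene was called under any alternative. A bulk left with 1 library was assumed to vary like the others, and the cause of these changes was not tested.

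Of 291 alternative values of 18 log2FC, 270 kept their sign and 21 did not. With libraries left out, the H/L log2FC ranged from −0.37 to 0.20 for *AGPS1*, −0.31 to 0.12 for LOC102577674, −0.30 to 0.17 for LOC102583115, −0.38 to 0.74 for LOC102596498, −0.12 to 1.12 for *R1*, −0.15 to 0.62 for LOC102588806, −0.33 to 0.49 for LOC102590483, −0.043 to 0.32 for *AMYA1* and −0.038 to 0.62 for *DE2*. Between the classes of *AGPaseS-a* it ranged from −0.043 to 0.52 for *AGPS1* and −0.39 to 0.11 for LOC102600909. Library totals gave 0.0065 for LOC102577674 and 0.014 for LOC102583115 in H/L.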
